A study of Mus musculus with 26 samples.

Results

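The genes described here are 10 genes listed together as primed epiblast genes, a name that not every member's values below follow. They are the secreted ligands Fgf5, Fgf15 and Nodal, the secreted inhibitor Cer1, and the transcription factors Otx2, Pou3f1, Foxd3, Sox3, Zic2 and Zic5. They were chosen by name from 21757 gene symbols with a probe set of their own on the array, and all 10 were among the 18341 genes with at least 4 such probe sets. The study measured 26 mouse samples on an exon array, where most genes have several probe sets. Of these, 14 are labelled 129S2/SvPas (ES1 to ES14) and 12 are labelled C57BL/6 (ES15 to ES26), inbred strains commonly used to derive embryonic stem cells. Every sample is described as mouse ES EB with a numbered "embyonic Body cell" as its tissue. By these labels alone, the samples were taken as embryonic stem cells and the embryoid bodies grown from them. The labels used here give no time, treatment, genotype, cell line, age or batch. All values are log2 values, as RMA gives them, and the value of a gene is the median over the brighter part of its probe sets (50%, rounded up), with brightness taken as the average of the 26 arrays.

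The epiblast is the layer of the early embryo from which all tissues of the body arise. Mouse embryonic stem cells in the naive state resemble the epiblast before implantation. After implantation the epiblast enters a primed state, in which naive genes such as Zfp42 and Esrrb are silenced while Fgf5, Otx2 and Pou3f1 rise. Nodal, a ligand of the TGF-beta family, keeps the primed state and, with Wnt and BMP signals, patterns the primitive streak. Cer1 and Lefty proteins limit Nodal. Several of these genes are also active later in the neural tube and the neural crest.

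The arrays are described in runs of consecutive titles: ES1 to ES12, ES13 and ES14, ES15 to ES20, ES21 to ES24, and ES25 and ES26. These runs follow the titles and earlier results of these data, not a label, so they are described by their ranges and were not tested. ES13 and ES14 went against their strain label over all tested genes, with a mean correlation of 0.833 and 0.836 with the other arrays labelled 129S2/SvPas and of 0.944 and 0.948 with those labelled C57BL/6. The mean of 11 leukocyte markers ranged from 11.13 to 12.04 in ES1 to ES12, against 5.33 to 8.25 on the other arrays. The mean of 18 naive pluripotency markers lay between 9.18 and 9.82 in ES21 to ES24 and between 6.43 and 7.73 elsewhere. The mean of 16 primitive streak markers reached 8.64 in ES13 and 7.65 in ES14, against 5.91 to 7.17 elsewhere. The mean of 9 erythroid markers was 7.66 in ES13, 9.59 in ES14 and 9.18 to 11.25 in ES15 to ES20, against 5.64 to 7.00 elsewhere. The mean of 13 genes shared by naive and primed cells, a check of the labelled cell kind, was 6.10 to 6.44 in ES1 to ES12. It was 6.88 in ES25, 7.82 in ES26 and 7.87 to 8.95 in ES15 to ES20. ES13 and ES14 had 10.02 and 9.36, and ES21 to ES24 10.49 to 11.13. On this check ES1 to ES12 lay below every other array, so their values are not read here as levels in pluripotent cells. ES15 to ES20, ES25 and ES26 lay below all of ES21 to ES24, so lying above ES1 to ES12 is not read as being pluripotent. In bulk samples like these, fewer cells of a type and less RNA per cell cannot be told apart, and the part of cell mixture in the values below was not tested.

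Fgf5, the fibroblast growth factor that is the usual marker of the primed epiblast, was highest in ES13. It ranged from 5.13 to 6.07 in ES1 to ES12 (median 5.58). ES13 had 8.10 and ES14 6.96, while ES15 to ES20 ranged from 6.30 to 7.00 (median 6.60). It was 7.48, 7.26, 7.19 and 7.06 in ES21 to ES24, 6.92 in ES25 and 7.89 in ES26. ES1 to ES12 lay below every other array. ES26 was second to ES13, and there the naive marker mean was 7.17 and the primitive streak marker mean 6.58. The mean of 14 fibroblast markers was 9.42 in ES25 and 9.17 in ES26, 8.11 in ES13, and highest in ES15 to ES20 (8.74 to 10.59). The promoters of Fgf5 and of the members that differed most between ES13 and ES23 are given, each from 250 bases before to 50 after an annotated start (RefSeq, build GRCm38.p6), to show how unlike these control regions are.
Fgf5, chr5:98253934-98254233, plus strand: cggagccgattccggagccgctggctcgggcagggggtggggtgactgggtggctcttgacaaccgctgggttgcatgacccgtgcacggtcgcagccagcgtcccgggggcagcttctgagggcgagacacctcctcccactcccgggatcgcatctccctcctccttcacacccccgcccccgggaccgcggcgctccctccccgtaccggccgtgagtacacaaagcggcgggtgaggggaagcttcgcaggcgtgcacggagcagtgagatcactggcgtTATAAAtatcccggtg
Nodal, chr10:61417722-61418021, plus strand: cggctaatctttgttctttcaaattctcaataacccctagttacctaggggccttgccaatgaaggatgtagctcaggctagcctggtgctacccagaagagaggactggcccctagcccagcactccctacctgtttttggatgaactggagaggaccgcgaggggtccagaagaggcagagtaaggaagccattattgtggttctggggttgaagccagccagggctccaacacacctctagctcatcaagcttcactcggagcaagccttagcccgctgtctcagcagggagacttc
Foxd3, chr4:99656049-99656348, plus strand: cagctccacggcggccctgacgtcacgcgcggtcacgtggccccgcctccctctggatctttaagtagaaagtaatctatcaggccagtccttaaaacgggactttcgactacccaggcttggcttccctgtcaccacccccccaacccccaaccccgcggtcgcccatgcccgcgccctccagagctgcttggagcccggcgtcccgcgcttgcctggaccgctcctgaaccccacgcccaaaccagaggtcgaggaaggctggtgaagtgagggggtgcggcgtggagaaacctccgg
Otx2, chr14:48665060-48665359, minus strand: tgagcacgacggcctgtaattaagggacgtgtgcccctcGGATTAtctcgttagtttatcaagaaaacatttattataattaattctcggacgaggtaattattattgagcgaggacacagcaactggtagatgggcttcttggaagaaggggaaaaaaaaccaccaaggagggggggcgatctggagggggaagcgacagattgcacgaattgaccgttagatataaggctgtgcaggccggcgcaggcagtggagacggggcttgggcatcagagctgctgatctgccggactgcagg
Capitals mark a match to any of 5 motifs searched on both strands: the POU octamer ATGCAAAT, the OTX-type homeobox motif TAATCC, the FOXH1 motif AATCCACA, the SMAD palindrome GTCTAGAC and the TATA box TATAAA. Fgf5 held TATAAA after its start, and the Otx2 window held TAATCC as its reverse complement. The Nodal and Foxd3 windows held none. Of 32851 mouse promoter windows of this length, 13.6% held TATAAA and 7.06% held TAATCC. The Fgf5 window had 29 CpG pairs and 68.3% GC, and the Foxd3 window 25 and 65.7%, against a median of 7 and 52.7% over all windows. The Nodal window had 5 CpG pairs and the Otx2 window 16. For Otx2, 4 windows are listed, and the one shown was picked for its homeobox motif and has the most CpG pairs of the 4. The others had 6, 8 and 11 CpG pairs, and 1 of them held TATAAA.

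**Figure D1:**
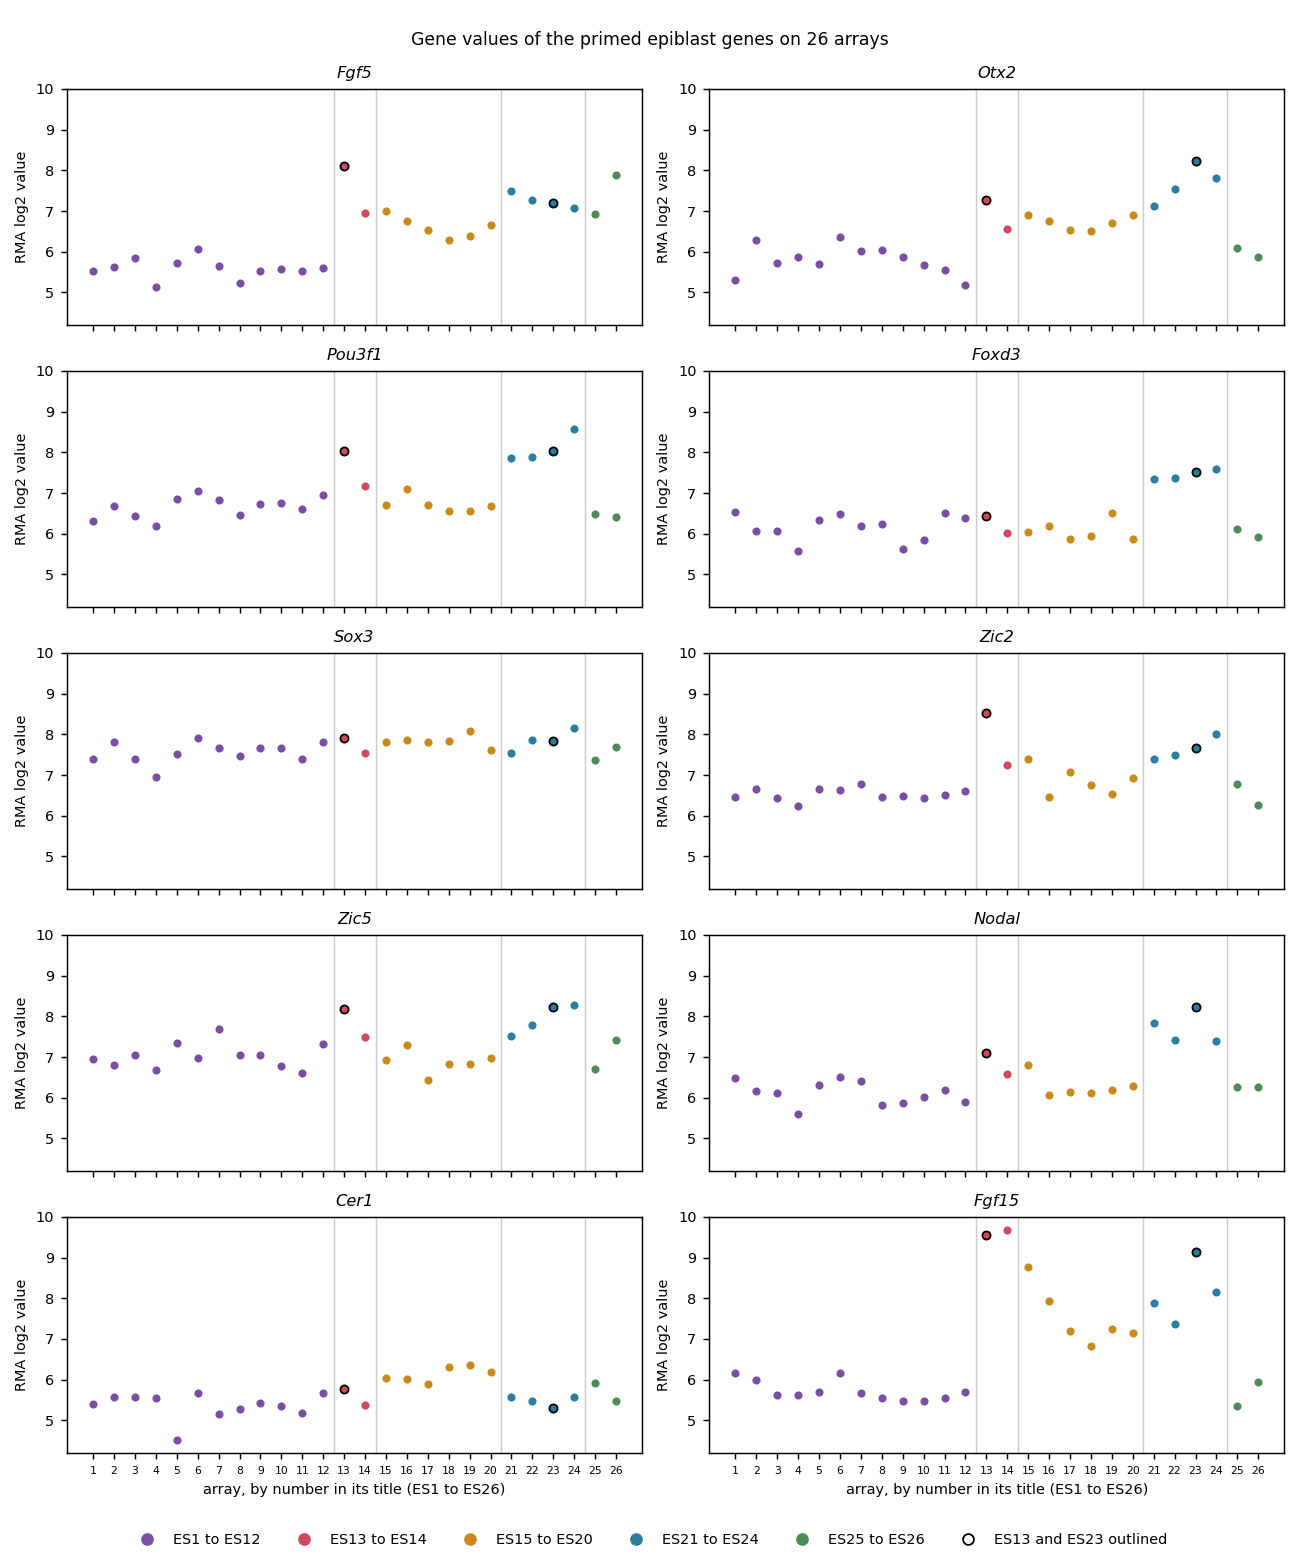
RMA log2 gene value of each of the 10 genes (1 panel per gene) on the 26 arrays in title order, 1 point per array, coloured by run of titles. Fgf15 spans 5.35 to 9.68, while Sox3 stays between 6.96 and 8.16, and Foxd3 is above 7 in ES21 to ES24 and below it on every other array.

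Fgf15, a fibroblast growth factor of the early neural tube and, later, of the gut, covered the widest range of the 10 genes. It ranged from 5.47 to 6.16 in ES1 to ES12 (median 5.65). ES13 had 9.56 and ES14 9.68. In ES15 to ES20 it was 8.77, 7.93, 7.20, 6.84, 7.24 and 7.14, with ES15 the highest of that run. In ES21 to ES24 it was 7.88, 7.38, 9.14 and 8.16. ES25, at 5.35, lay below ES1 to ES12, and ES26, at 5.95, within their range. Fgf15 was the 1 gene of the 10 whose ES13 and ES14 values both lay above those of every array in ES21 to ES24. In the RefSeq gene table its protein-coding neighbour is Fgf4, a ligand of naive cells, which was 8.17 in ES13 and 9.47 in ES23, the reverse order to that of Fgf15.

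Nodal was highest in ES21 to ES24. It ranged from 5.61 to 6.51 in ES1 to ES12 (median 6.14). ES13 had 7.10 and ES14 6.57, while ES15 to ES20 ranged from 6.07 to 6.80 (median 6.16). It was 7.83, 7.41, 8.24 and 7.39 in ES21 to ES24, and 6.28 and 6.25 in ES25 and ES26. ES13 and ES14 lay above all of ES1 to ES12 and below all of ES21 to ES24. In ES15 to ES20, the first array, ES15, held the highest value and the other 5 lay within the range of ES1 to ES12.

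Cer1, a secreted inhibitor of Nodal, BMP and Wnt ligands made in anterior visceral endoderm and early mesendoderm, had another order over the runs. It ranged from 4.52 to 5.67 in ES1 to ES12 (median 5.42). ES13 had 5.76 and ES14 5.38. In ES15 to ES20 it lay between 5.89 and 6.35, with a median of 6.11, above every array of ES21 to ES24, where it lay between 5.30 and 5.58. It was 5.92 in ES25, within the range of ES15 to ES20, and 5.49 in ES26. The mean of 14 extraembryonic endoderm markers was also highest in ES15 to ES20, from 7.38 to 8.68, against 6.88 to 7.21 in ES21 to ES24. The mean of 12 markers of anterior visceral endoderm and mesendoderm was not, at 6.64 to 6.94 in ES15 to ES20 and 6.64 to 6.86 in ES21 to ES24. The brightest probe set of Cer1 (5231257) did not separate these runs either, with medians of 6.79 in ES15 to ES20 and 6.85 in ES21 to ES24. Its highest array was ES21, at 6.94.

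Otx2, a homeobox factor that drives the exit from the naive state and later patterns the head, was highest in ES23. It ranged from 5.18 to 6.36 in ES1 to ES12 (median 5.80). ES13 had 7.26 and ES14 6.55, while ES15 to ES20 ranged from 6.51 to 6.91 (median 6.72). It was 7.11, 7.55, 8.24 and 7.81 in ES21 to ES24, and 6.09 and 5.86 in ES25 and ES26. ES21 to ES24 lay above ES15 to ES20, which lay above ES1 to ES12 and above ES25 and ES26.

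Pou3f1, the POU factor also called Oct6 that acts with Otx2 in the early primed state, was about level in ES13 and in ES21 to ES24. It ranged from 6.18 to 7.04 in ES1 to ES12 (median 6.70). ES13 had 8.02 and ES14 7.17, while ES15 to ES20 ranged from 6.55 to 7.10 (median 6.69). It was 7.87, 7.90, 8.02 and 8.58 in ES21 to ES24, and 6.50 and 6.41 in ES25 and ES26. The ranges of ES15 to ES20 and of ES1 to ES12 overlapped almost wholly.

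Foxd3, a forkhead factor needed to keep pluripotent epiblast cells and later a neural crest factor, was set apart in 1 run. It was 7.33, 7.37, 7.51 and 7.60 in ES21 to ES24. On the other 22 arrays it lay between 5.58 and 6.53, ES13 (6.44) and ES14 (6.01) included. ES13, ES14, ES25 (6.12) and ES26 (5.91) thus all lay within the range of ES1 to ES12.

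Sox3, an X-linked SoxB1 factor close to Sox2, had the narrowest range of the 10 genes, 1.20 log2 units. It ranged from 6.96 to 7.92 in ES1 to ES12 (median 7.58). ES13 had 7.91 and ES14 7.55, while ES15 to ES20 ranged from 7.62 to 8.09 (median 7.82). It was 7.54, 7.85, 7.83 and 8.16 in ES21 to ES24, and 7.37 and 7.68 in ES25 and ES26. Every run of titles overlapped with every other in this gene value. A dimmer probe set (5283165), which the gene value leaves out, spanned 3.94 log2 units. The Sox3 paralog Sox2, a core pluripotency factor, was 8.50 in ES13 and 11.44 in ES23 and lay between 5.34 and 6.30 in ES1 to ES12.

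Zic2 and Zic5, zinc finger factors of the Zic family that act at enhancers in primed cells and in the dorsal neural tube, are next to each other on chromosome 14 in the RefSeq gene table. Zic2 ranged from 6.25 to 6.78 in ES1 to ES12 (median 6.50). ES13 had 8.52, its highest value, and ES14 7.24, while ES15 to ES20 ranged from 6.46 to 7.39 (median 6.85). It was 7.40, 7.49, 7.65 and 8.02 in ES21 to ES24, and 6.77 and 6.25 in ES25 and ES26, which overlapped ES1 to ES12. Zic5 ranged from 6.60 to 7.68 in ES1 to ES12 (median 7.00). ES13 had 8.18 and ES14 7.48, while ES15 to ES20 ranged from 6.45 to 7.31 (median 6.89). It was 7.52, 7.79, 8.23 and 8.27 in ES21 to ES24, and 6.71 and 7.41 in ES25 and ES26. Both genes were thus high in ES13 and in ES21 to ES24, and ES13 lay above all of ES21 to ES24 for Zic2 but not for Zic5.

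Over the 10 genes, 7 were higher in every array of ES21 to ES24 than in any of ES1 to ES12, and 0 were lower in every array. Over all tested genes, 15.2% were higher and 14.6% lower in that sense. ES13 and ES14 were both above all of ES1 to ES12 for 6 genes, against 16.0% of all tested genes, and below them for 0, against 20.9%. ES21 to ES24 were above ES25 and ES26 for 7 genes, against 16.1%. ES21 to ES24 were above all of ES15 to ES20 for 7 genes, against 12.7%, with Fgf15 and Sox3 overlapping, and below them for 1, Cer1, against 11.8%. For Zic2 the ranges touched, with 7.40 as the lowest value in ES21 to ES24 and 7.39 as the highest in ES15 to ES20. ES15 to ES20 were above all of ES1 to ES12 for Fgf5, Otx2, Cer1 and Fgf15, 4 of 10 genes against 12.5%. These shares have no test, since the runs are not labelled groups.

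ES13, labelled 129S2/SvPas, and ES23, labelled C57BL/6, held similar levels of the genes as a group but in a different balance. The mean of the 10 genes was 7.69 in ES13 and 7.74 in ES23. Relative to ES23, ES13 was lower by over 1 log2 unit (2-fold) for Nodal (7.10 in ES13 and 8.24 in ES23, a difference of -1.13) and Foxd3 (6.44 in ES13 and 7.51 in ES23, a difference of -1.07). Over all tested genes, 6.92% were lower by that much and 2.65% higher. Otx2 was just inside that limit (7.26 in ES13 and 8.24 in ES23, a difference of -0.97). In the other direction, 0 genes passed it, with Fgf5 (8.10 in ES13 and 7.19 in ES23, a difference of 0.91) and Zic2 (8.52 in ES13 and 7.65 in ES23, a difference of 0.87) nearest. Cer1 differed by 0.47, Fgf15 by 0.42 and Sox3 by 0.07, and Pou3f1 (8.02 in both) and Zic5 (8.18 in ES13 and 8.23 in ES23) by less than 0.05 in size. Each side is 1 array, so these differences have no replicate check. The median over all tested genes was -0.11, and 0.07 after each array was centred on its median gene, when Fgf5 (1.09) and Zic2 (1.05) passed the limit upwards and Nodal (-0.95) and Foxd3 (-0.89) no longer passed it downwards. Of all tested genes 4.70% were lower and 4.37% higher by over 1 log2 unit after centring.

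**Figure D2:**
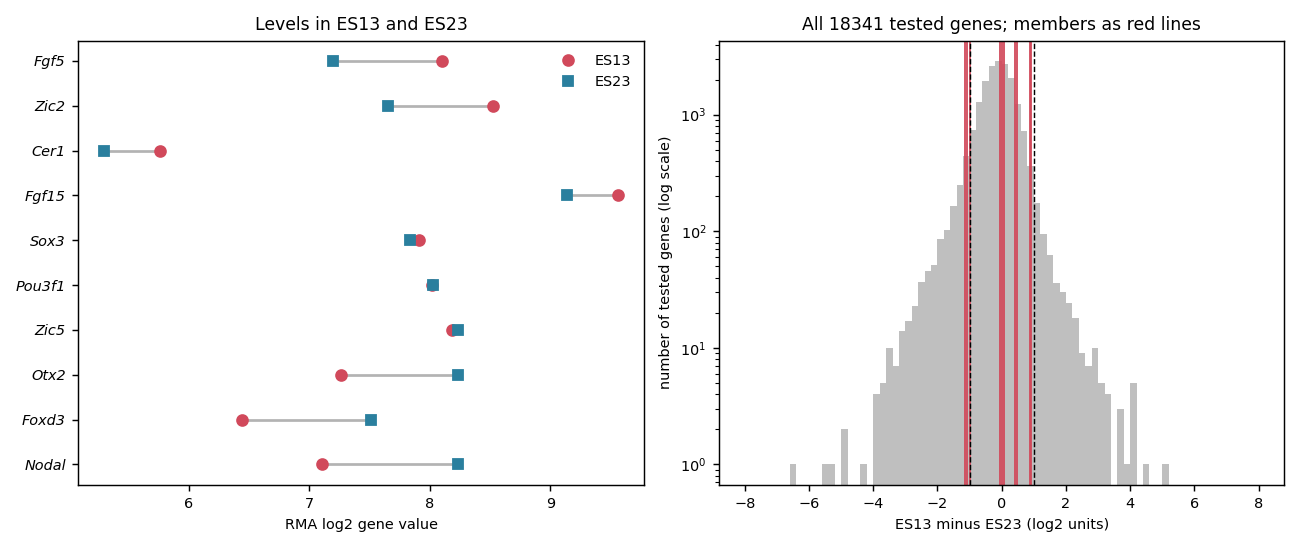
Left, RMA log2 gene values of the 10 genes in ES13 (circles) and ES23 (squares), ordered by their difference. Right, ES13 minus ES23 for all tested genes on a log count axis, with the 10 genes as red lines between -1.13 and 0.91 and dashed lines at 1 log2 unit either way.

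ES14 and the other arrays of the run ES21 to ES24 gave other sizes for some of these differences. ES14 was lower than ES13 for 9 of the 10 genes, by 1.29 for Zic2, 1.14 for Fgf5 and 0.85 for Pou3f1, and higher for Fgf15. With ES14 in place of ES13 against ES23, 3 genes were lower by over 1 log2 unit, Otx2 (-1.69), Nodal (-1.66) and Foxd3 (-1.50), against 7.83% of all tested genes. Fgf5 (-0.24) and Zic2 (-0.42) then changed sign. Nodal differed by only -0.73, -0.31 and -0.28 when ES21, ES22 or ES24 took the place of ES23, which had the highest Nodal value of all arrays. Foxd3 differed by -0.89, -0.93 and -1.16, and Fgf15 by 1.69, 2.18 and 1.41, with ES23 the highest of its run for Fgf15 and Nodal. Otx2 differed by 0.15, -0.29 and -0.55, so its sign turned with ES21. Fgf5 differed by 0.62, 0.84 and 1.04, and Zic2 by 1.13, 1.03 and 0.51, each higher in ES13.

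The naive markers differed by more between ES13 and ES23. Of 18 naive markers, 16 were lower by over 1 log2 unit in ES13 than in ES23, with a median difference of -3.02. Over all tested genes, 6.92% were lower and 2.65% higher by as much, shares to set beside each list count here. The F-box gene Fbxo15 was 4.70 in ES13 and 11.15 in ES23, and the nuclear receptor gene Nr0b1 6.40 in ES13 and 11.70 in ES23. The orphan receptor gene Esrrb was 6.29 in ES13 and 11.17 in ES23, and Zfp42 7.12 in ES13 and 11.95 in ES23. Tbx3 alone among them was higher in ES13 by over 1 log2 unit. Of 16 primitive streak markers, 12 were higher by over 1 log2 unit in ES13 and 0 lower, with a median of 1.5. The homeobox gene Mixl1 was 10.95 in ES13 and 6.47 in ES23, the LIM homeobox gene Lhx1 9.33 in ES13 and 5.23 in ES23, and the receptor gene Pdgfra 8.83 in ES13 and 5.61 in ES23. Among 13 genes shared by both pluripotent states, 6 were lower and 0 higher, with Utf1 at 9.92 in ES13 and 12.49 in ES23 and Dppa2 at 8.99 in ES13 and 11.16 in ES23. The other 19 tested genes of the primed epiblast list went both ways, 5 lower and 4 higher, against 6.92% and 2.65% of all tested genes. Lef1, the Wnt effector, was 9.85 in ES13 and 7.26 in ES23, the carbonic anhydrase gene Car4 10.05 in ES13 and 7.88 in ES23, and Grhl3, a grainyhead factor gene, 6.55 in ES13 and 8.90 in ES23.

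**Figure D3:**
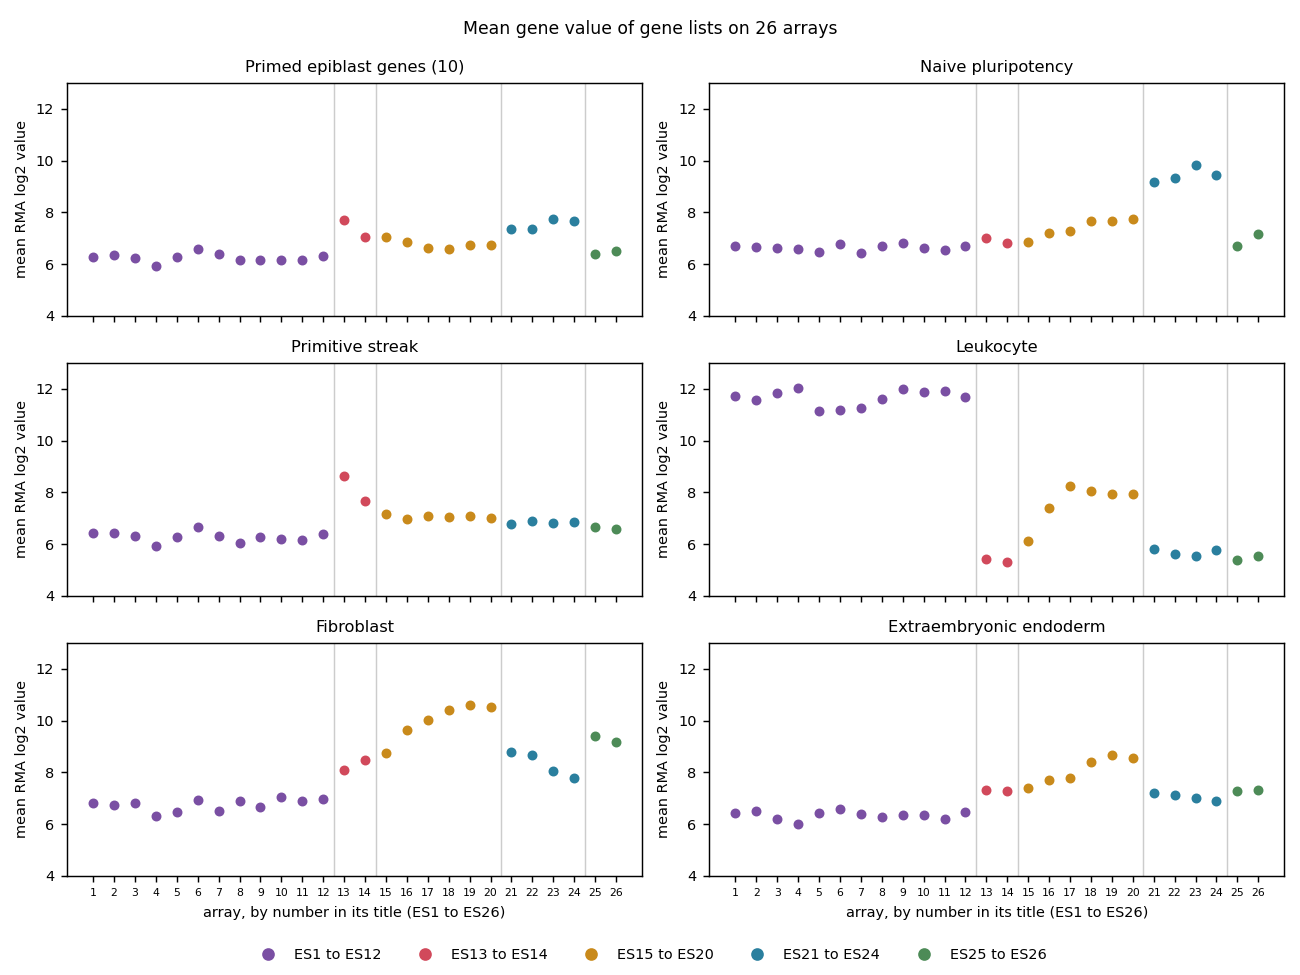
Mean RMA log2 gene value of 6 gene lists on the 26 arrays in title order, 1 point per array, coloured by run of titles. The 10 primed genes reach 7.69 in ES13 and 7.35 to 7.74 in ES21 to ES24, while the naive list is 7.00 in ES13 and 9.18 to 9.82 in ES21 to ES24.

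Probe sets of the same gene covered different ranges. The brightest probe set of Nodal (4786175) lay between 8.58 and 10.05 on all arrays. A dimmer probe set of the same gene (4782274), outside the gene value, ranged from 3.91 to 5.20 in ES1 to ES12 and from 8.75 to 10.10 in ES21 to ES24, with 8.94 in ES13 and 6.79 in ES14. For Zic5, the probe set 4607081 ranged from 1.71 to 2.88 in ES1 to ES12, reached 8.15 in ES13 and 8.86 in ES23, and spanned 7.16 log2 units, against a median span of 1.40 over the 7 brighter probe sets. For Otx2, the probe set 5551016 ranged from 2.43 to 3.61 in ES1 to ES12 and reached 7.52 in ES13 and 9.19 in ES23. For Sox3, the probe set 5283165 ranged from 3.67 to 5.43 in ES1 to ES12 and from 5.73 to 6.97 in ES21 to ES24. It was 6.96 in ES13 and 6.99 in ES14, with medians of 7.09 in ES15 to ES20 and 4.40 in ES25 and ES26. Of the 10 Sox3 probe sets, it was the 1 that spanned at least 2 log2 units. The median span of the dimmer probe sets was 1.49 for Sox3 and 6.60 for Otx2, against 1.36 and 3.45 for their brighter ones. Brightness was the mean of 26 arrays, so a probe set that was low in the 12 arrays ES1 to ES12 was placed among the dimmer ones by that change itself, and the spans of both parts are a description only. This split of probe sets was added after the values were seen.

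Taken over the dimmer probe sets, some members had runs further apart, while for others the ranges of runs that had been apart overlapped. Nodal had a median of 3.85 in ES1 to ES12, 5.54 in ES13 and ES14, 4.32 in ES15 to ES20, 6.97 in ES21 to ES24 and 3.70 in ES25 and ES26. Zic2 had medians of 3.91, 6.54, 5.07, 6.20 and 4.65 in the same order, and Zic5 of 3.99, 6.17, 5.20, 6.21 and 4.49. Zic5 then lay above ES1 to ES12 in every array of ES21 to ES24, with 6.16 as the lowest value there and 4.89 as the highest in ES1 to ES12. Sox3 lay between 6.66 and 6.79 in ES13 and ES14 and between 6.61 and 6.74 in ES15 to ES20, above the 5.21 to 6.42 of ES1 to ES12. For Pou3f1 the 3.41 to 5.82 of ES1 to ES12 overlapped the 5.42 to 6.88 of ES21 to ES24, while ES15 to ES20 reached 5.35. Its medians did not draw closer, at 4.57 in ES1 to ES12 and 6.16 in ES21 to ES24, against 6.70 and 7.96 for the gene value. Cer1 had run medians between 2.98 and 3.80, and its 3.11 to 3.70 in ES21 to ES24 lay inside its 2.75 to 4.83 in ES15 to ES20. With the dimmer probe sets, 6 of the 10 genes were lower by strain label and 0 higher (limma, adjusted p below 0.05), against 19.9% and 19.7% of all tested genes, with Sox3, Zic2, Zic5 and Fgf15 added and Cer1 lost (-0.06, limma adjusted p = 0.848). Low values in ES1 to ES12 help to place a probe set in the dimmer part, so this label count is partly set by the split. It is a description and no support for a strain difference. Between ES13 and ES23, 2 were then lower by over 1 log2 unit, Otx2 (-1.40) and Nodal (-1.48), and 0 higher, against 8.93% and 2.79% of all tested genes. With the median over all probe sets, 3 were lower and 1, Zic2 (1.32), higher, against 8.09% and 2.50%.

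**Figure D4:**
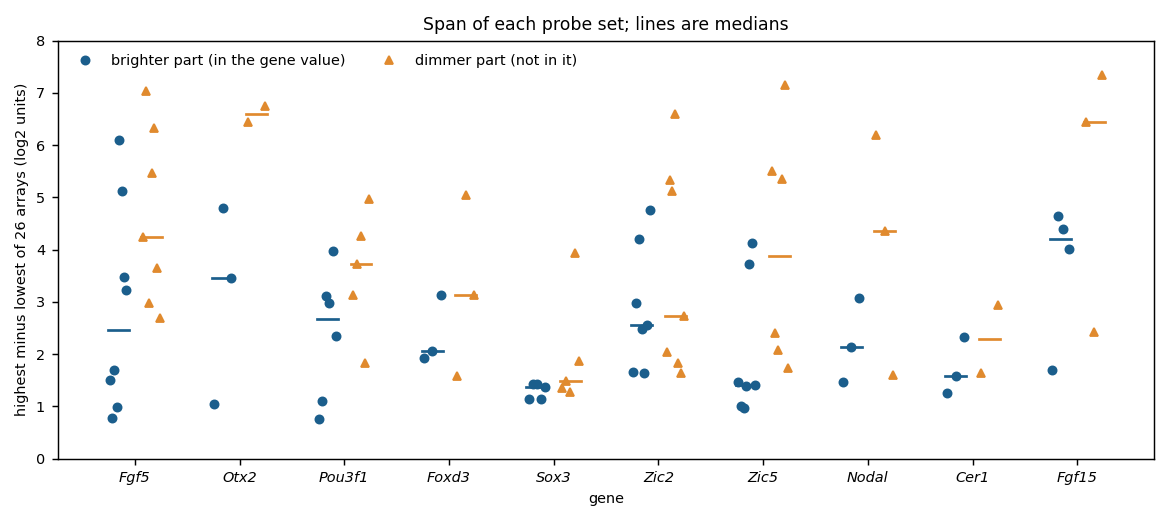
Highest minus lowest value over 26 arrays for each probe set of the 10 genes, with circles for the brighter probe sets that make up the gene value, triangles for the dimmer ones, and lines for medians. The widest spans are those of dimmer probe sets of Fgf15 (7.34), Zic5 (7.16) and Fgf5 (7.04).

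Probe sets of 1 gene mostly agreed in direction between ES13 and ES23. All 7 of Fgf15, 13 of 14 of Zic2, 12 of 15 of Fgf5 and 8 of 10 of Sox3 were higher in ES13. All 5 of Otx2, all 6 of Foxd3 and 5 of 6 of Nodal were lower in ES13. The others split, with 5 of 11 higher for Pou3f1, 6 of 13 for Zic5 and 3 of 5 for Cer1. Probe sets of a gene share its transcripts and are not replicates.

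The only labelled comparison is that of the strains, and there 129S2/SvPas arrays were lower for 3 of the 10 genes and higher for 0 (limma, Benjamini-Hochberg adjusted p below 0.05 over 18341 genes). Over all tested genes, 22.1% were lower and 21.1% higher, so this count is near the background. With arrays centred on their median gene, 2 of the 10 were lower, against 16.1% lower and 31.3% higher over all tested genes. The median difference was -0.40 over the 10 genes and -0.0015 over all tested genes. Fgf5 averaged 5.86 ± 0.77 (SD, n = 14) in arrays labelled 129S2/SvPas and 6.95 ± 0.46 (SD, n = 12) in arrays labelled C57BL/6, a difference of -1.09 ± 0.25 (SE, limma adjusted p = 0.000734). Otx2 averaged 5.96 ± 0.54 in 129S2/SvPas and 6.92 ± 0.68 in C57BL/6 arrays, a difference of -0.96 ± 0.23 (SE, limma adjusted p = 0.00138). Cer1 averaged 5.40 ± 0.31 in 129S2/SvPas and 5.85 ± 0.35 in C57BL/6 arrays, a difference of -0.45 ± 0.13 (SE, limma adjusted p = 0.00604), which missed the threshold after centring (limma adjusted p = 0.0516). Fgf15 differed by -1.13 ± 0.48 (SE, limma adjusted p = 0.0565) and Nodal by -0.53 ± 0.22 (SE, limma adjusted p = 0.0582), both just outside the threshold. The adjusted p of Sox3, Foxd3, Zic2, Pou3f1 and Zic5 lay between 0.0989 and 0.626 by limma, with differences between -0.36 and -0.13. The Zic5 difference turned to 0.0015 with arrays centred and 0.02 with quantile normalization.

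That comparison rests on ES1 to ES12. Without them, ES13 and ES14 stood against the 12 arrays labelled C57BL/6, and 0 of the 10 genes passed (limma, adjusted p below 0.05), against 0% lower and 0.00545% higher, 1 gene, of all tested genes. Fgf5 (0.57), Pou3f1 (0.46), Zic2 (0.82), Zic5 (0.56), Nodal (0.09) and Fgf15 (2.21) were then above 0. Without ES13 and ES14, which leaves ES1 to ES12 on that side, 6 of the 10 genes were lower, against 25.2% of all tested genes, with Fgf15 at -1.69 (limma adjusted p = 2.89e-05), Zic2 at -0.53 (limma adjusted p = 0.00613) and Nodal at -0.63 (limma adjusted p = 0.0207) joining. The count of lower members was also 6 without ES13 or without ES25, and 5 without ES14 or without ES26, while 23.8%, 22.5%, 23.6% and 22.3% of all tested genes were lower. Using every probe set of a gene, it was 6 by their median, against 21.8% of all tested genes, and 7 by their mean, against 24.0%. Of 11 leukocyte markers, 11 were higher in the 129S2/SvPas arrays, against 21.1% of all tested genes. They followed ES1 to ES12 and not the label, as their mean was 11.13 to 12.04 there but 5.42 in ES13 and 5.33 in ES14. The labels state nothing of separate cultures or animals, so these p-values reflect spread among these samples alone, possibly technical, and strain and title order cannot be told apart.

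Genes of the Nodal pathway other than Nodal were lower in the 129S2/SvPas arrays for 10 of 15 tested members and higher for 1, against 22.1% and 21.1% of all tested genes. These label counts, and those of the next paragraph, rest on ES1 to ES12. Without those arrays, 0 of all tested genes were lower and 1 was higher. The median difference was -1.11, against a median near 0 over all tested genes. Gdf3, a ligand related to Nodal, was lower by 2.34 (limma adjusted p = 0.000217), and Lefty1, a Nodal target that feeds back as its inhibitor, differed by -1.74 (limma adjusted p = 0.00803). Gdf3 was 6.73 in ES13 and 10.53 in ES23, and Lefty1 was 8.72 in ES13 and 10.97 in ES23, so both followed Nodal in being lower in ES13. Foxh1, the forkhead partner of Smad2 in Nodal signalling, went the other way, at 9.80 in ES13 and 8.50 in ES23. The receptor gene Acvr2a (8.71 in ES13 and 8.42 in ES23) and the shared mediator Smad4 (10.66 in ES13 and 10.47 in ES23) differed by less than 1 log2 unit there. By strain label Acvr2a differed by -1.46 (limma adjusted p = 1.24e-05) and Smad4 by -0.75 (limma adjusted p = 6.79e-06). ES14 had 8.88 for Acvr2a and 10.66 for Smad4, so ES13 and ES14 were near or above the C57BL/6 means of 8.70 and 10.63. ES1 to ES12 were lower, at 6.53 to 7.84 for Acvr2a and 9.53 to 9.97 for Smad4.

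Of 15 tested genes of the FGF pathway, 9 were lower and 0 higher in the 129S2/SvPas arrays, against 22.1% and 21.1% of all tested genes. The receptor genes Fgfr1 (-2.80, limma adjusted p = 4.39e-06) and Fgfr2 (-2.52, limma adjusted p = 4.93e-05) had the smallest p. Fgfr1 was 10.61 in ES13 and 10.57 in ES14, and Fgfr2 8.98 and 9.22, all above the C57BL/6 means of 10.52 and 8.08. ES1 to ES12 were lower, at 6.19 to 8.64 for Fgfr1 and 4.43 to 5.47 for Fgfr2. Between ES13 and ES23, Fgf4 (8.17 in ES13 and 9.47 in ES23) and the feedback inhibitor Spry4 (9.11 in ES13 and 10.30 in ES23) were lower by over 1 log2 unit and 0 genes were higher by as much. Over all tested genes, 6.92% were lower and 2.65% higher by as much. Of 17 tested paralogs of the members, 6 were lower and 0 higher by strain label, to be set against 22.1% and 21.1% of all tested genes. Sox2 differed by -3.26 (limma adjusted p = 1.24e-06), the BMP inhibitor Grem1, of the same family as Cer1, by -1.09 (limma adjusted p = 0.00568) and the POU factor Pou3f4 by -0.79 (limma adjusted p = 0.00758). Sox2 was the 1 paralog that differed by over 1 log2 unit between ES13 and ES23. Of the other 19 tested primed epiblast genes, 12 were lower and 1, Car4, was higher by strain label, against 22.1% and 21.1% of all tested genes. The smallest p were those of the zinc finger gene Zfp462 (-4.35, limma adjusted p = 1.18e-07) and the ephrin receptor gene Epha4 (-3.21, limma adjusted p = 1.3e-07).

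Genes with profiles like those of the members were sought by the root mean square difference over the 26 arrays after each gene was centred on its own median. The 7 members that spanned at least 2 log2 units were used, and 32.5% of all tested genes spanned as much. Dusp9, a MAP kinase phosphatase gene, was nearest to Fgf5 (0.34 log2 units). Plekha7 (0.31), Cbx1 (0.34) and Cgn (0.34) were the 3 nearest to Otx2, of which Plekha7 and Cgn encode proteins of epithelial junctions. Moxd1 was nearest to Zic2 (0.26), Arhgef16 to Pou3f1 (0.29), Slc4a5 to Foxd3 (0.27), Ckmt1 to Nodal (0.27) and Lrrn4 to Fgf15 (0.42). No member was among the 3 nearest genes of another. Zic2 and Pou3f1 were each other's nearest member (0.32), ranked 13 from Pou3f1 and 11 from Zic2, and so were Nodal and Foxd3 (0.34), ranked 31 from Foxd3 and 32 from Nodal. The nearest member was further down for Fgf5 (Otx2, 0.62, rank 1102) and Fgf15 (Otx2, 1.05, rank 228). The points share 26 arrays that fall into runs, so this likeness is a description.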

How the data were processed

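RNA was isolated with a column kit, freed of DNA, amplified in 2 rounds and hybridized to the Affymetrix Mouse Exon 1.0 ST array, per the labels' protocols. The deposited values are RMA log2 values per probe set, made by the authors with Affymetrix Expression Console in an extended-exon analysis, per the labels; its version and the genome build are not given in the sources used here. Normalization in RMA pulls arrays to a common distribution, which can hide global shifts. Base 2 was taken from RMA convention and the range of 0.831 to 15.6. The table held 631748 probe sets and no 2 arrays were identical. Arrays give no read depth, and their number limits the precision.

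By the platform annotation, 306069 probe sets (48.4%) had 1 symbol, 6067 had several and 319612 had none. Of 21757 symbols, 17747 were current in RefSeq (GRCm38.p6), 3725 were updated through a synonym and 285 were kept. Members had 5 to 15 probe sets, and members with promoter entries numbered 6 of 10. Genes needed at least 4 probe sets, which left 18341, and their values were compared between strain labels with limma 3.58.1 in R 4.3.3 (lmFit, eBayes with trend, two-sided, Benjamini-Hochberg over all genes). The fit was tested on simulated data. ES13 and ES23 were compared by their difference, without a test. Members, lists and the pair of arrays were chosen with earlier results of these data known. Named genes were all members; per list, up to 3 with the largest ES13 minus ES23 difference and up to 2 with the smallest strain p; and the 3 nearest profiles per member spanning at least 2 log2 units. Tbx3 was named after its value was seen.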

Additional observations from a re-analysis of the deposited data

How the results depend on the processing

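The count of members lower by strain label (3 of 10) was 6 by the median and 7 by the mean of every probe set, 7 with array weights (26.5% of all tested genes), and 6 without ES13 and ES14. It was also 6 with the dimmer probe sets, a setting chosen after seeing the data and partly set by low values in ES1 to ES12. It was 0 without ES1 to ES12, where 1 gene of all passed, and 0 without the dimmer genes, since 9 of the 10 members lie below the median gene and were not tested there; 4841 genes then passed, against 7931. Leaving out each array in turn gave 3 to 6 lower members, with 20.9% to 23.8% of all tested genes lower. Differences that changed sign were that of Zic5 with arrays centred (0.0015, limma adjusted p = 0.996) or quantile normalized (0.021), and without ES1 to ES12 those of Fgf5 (0.57), Pou3f1 (0.46), Zic2 (0.82), Zic5 (0.56), Nodal (0.088) and Fgf15 (2.21). Centring moved the median difference of all genes to 0.13. Where no construction is named, the cause was not tested.

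Between ES13 and ES23, the count lower by over 1 log2 unit (2) was 1 by the mean of every probe set (5.31% of all tested genes) or with ES24 (3.88%), and 0 with arrays centred (4.70%), with ES21 (6.56%), with ES22 (7.47%) or past 2 log2 units. The count higher (0) was 1 with the median over all probe sets (2.50%), and 2 with arrays centred (4.37%), quantile normalized (3.65%), or with ES21 (2.63%), ES22 (2.62%) or ES24 (3.12%). Past 2 log2 units, 308 genes of all differed, against 1756 past 1. No paired analysis was possible because the labels give the strains no shared replicate numbers. Signal over background could not be judged, since the table gives no detection calls.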

Other observations

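Several of the 10 genes act in neural tissue, and neural markers were set beside them. The mean of 18 early neural markers lay between 7.30 and 7.53 in ES25 and ES26, overlapping the 7.18 to 7.34 of ES21 to ES24 and above the 6.01 to 7.12 of the other arrays. In ES25 and ES26 Zic2, Otx2, Pou3f1 and Fgf15 were low, but not every member was. Fgf5 was 6.92 in ES25 and 7.89 in ES26, and Zic5 was 6.71 in ES25 and 7.41 in ES26. Tubb3, a neuronal tubulin gene, was 10.09 in ES25 and 10.71 in ES26, and Nes, a filament gene of neural progenitors, 9.47 and 8.80. Not every early neural marker was high there. Gbx2 was 7.97 in ES25 and 7.81 in ES26, below the 8.14 to 8.63 of ES21 to ES24. Sox1 was 7.58 in ES25 and 7.32 in ES26, against 7.46 to 8.04 in ES21 to ES24. The mean of the 11 tested neural crest markers, 7.24 to 7.33 in ES25 and ES26, overlapped the 6.81 to 7.33 of ES15 to ES20 and the 6.78 to 7.37 of ES21 to ES24. Its members went both ways in ES25 and ES26, with Tfap2a at 9.37 and 8.95, above the 6.78 to 8.57 of ES21 to ES24, and Erbb3 at 5.51 in both, below the 7.37 to 8.53 of ES21 to ES24.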
